A study of Homo sapiens with 24 samples.

Results

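Genes that neuroendocrine cells use to make, store and release peptides were followed through 3 human cancer cell lines. These 9 genes were CHGA, CHGB, SCG2, VGF, SCG5, NTS, SYP, UCHL1 and INSM1. They were taken by symbol, and 9 of 9 were found among the 26346 genes of the deposited tables. RNA sequencing of polyA RNA gave 24 libraries in 12 groups of 2. Both VCaP and LNCaP derive from prostate cancer, and SW13 is labelled as adrenocortical carcinoma. VCaP cells, whose own ERG is driven by a gene fusion, carried an shRNA against ERG (shERG), one against ARID1A (shARID1A) or a control shRNA (shCt), with puromycin selection. In LNCaP the vector held ERG or ETV1 or was empty (Empty), with blasticidin selection. Every SW13 group carried a pair of vectors under both drugs: BRG1, the mutant BRG1-K785R with a changed ATPase, or GFP as control, each with ERG or with Empty. The sample titles say GFP where the protocol text names luciferase. Lentivirus was left on the cells for 48 h, and selection lasted 8 days (VCaP), 4 days (LNCaP) or 2 days (SW13). The 2 libraries of a group came from independent infection, selection and culture, and the labels name 1 shRNA group per target.

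Neuroendocrine cells pack peptide hormones with acidic proteins called granins into dense-core granules, and release them when calcium rises. In the prostate such cells are rare among the secretory luminal cells, and some advanced prostate cancers take on their features. CHGA and CHGB encode the chromogranins and SCG2 secretogranin II, granule matrix proteins that are also cut into peptides, and VGF encodes a related peptide precursor. SCG5 encodes 7B2, a chaperone of the prohormone convertase PC2, and NTS encodes the precursor of neurotensin. SYP encodes synaptophysin, a membrane protein of small secretory vesicles, and UCHL1 a ubiquitin hydrolase abundant in neurons and neuroendocrine cells. INSM1 encodes a zinc finger transcription factor of neuroendocrine differentiation.

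The stretches before the transcription start are shown for CHGA, VGF and NTS. These genes were lower in VCaP with either shRNA, and in SW13 with added ERG beside BRG1 and beside GFP. They were thus picked by their changes, with ERG lowered by shERG in VCaP and raised in SW13. The stretches are the 130 bases up to the base before the start given by RefSeq (GRCh38.p14), and capitals mark a cyclic AMP response element or a match with 1 other letter. They lie at chr14:92923020-92923149 (plus strand), chr7:101165570-101165699 (minus strand) and chr12:85874165-85874294 (plus strand).
CHGA: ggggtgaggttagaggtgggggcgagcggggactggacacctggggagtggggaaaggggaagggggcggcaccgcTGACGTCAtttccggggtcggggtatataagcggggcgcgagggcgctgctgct
VGF: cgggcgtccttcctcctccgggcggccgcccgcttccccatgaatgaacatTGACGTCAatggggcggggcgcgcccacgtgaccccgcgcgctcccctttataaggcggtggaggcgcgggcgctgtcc
NTS: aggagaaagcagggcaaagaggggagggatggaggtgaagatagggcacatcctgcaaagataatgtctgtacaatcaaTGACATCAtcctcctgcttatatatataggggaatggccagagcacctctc

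A window of 250 bases before the start was found for 6 of the 9 genes, and not for CHGB, SCG2 and INSM1. The response element TGACGTCA stood at -54 to -47 in CHGA and at -79 to -72 in VGF, counted back from the start, and 1.65% of the 35116 RefSeq windows of that length held it on either strand. With 1 free letter (TGACNTCA, which includes the first motif and was searched after the windows had been seen) the NTS window matched at -51 to -44, and 6.87% of all windows did. The windows of SYP, UCHL1 and SCG5 held neither form. The AP-1 motif TGANTCA (6.57% of windows) and the ETS motif CCGGAAGT (3.42%) were in none of the 6 windows. No free letter was allowed for ETS. In CHGA the letters Atttccgg, which overlap the response element, differ by 1 letter from its reverse complement ACTTCCGG. How many windows hold such a near match was not counted. TATAAA, in these exact letters on either strand, was in those of UCHL1 and VGF and in 10.7% of all. The shown windows of CHGA and NTS hold tatataa and tatatatata, which that search does not match. These matches describe letters in a window and are not measured sites.

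Libraries held 19754265 to 41996681 counted reads. Levels are given as CPM (each count divided by its library's total and put on one common scale), or per length as RPKM where genes are set against each other. The targeted genes followed the labels: ERG averaged 84.5 ± 4.9 CPM with shERG and 342 ± 17 CPM with shCt (SD, n = 2 each), and ARID1A 73.6 ± 2.37 CPM with shARID1A and 250 ± 1.01 CPM with shCt. ERG also averaged 240 ± 2.81 CPM with shARID1A. Added ERG reached 996 and 958 CPM in LNCaP and 1474 to 2148 CPM in SW13, whose Empty libraries held 0 to 6 ERG reads, and added ETV1 3749 and 3626 CPM, against 568 and 590 CPM in LNCaP Empty. SMARCA4, the gene of BRG1, averaged 2111, 2175, 1423 and 2110 CPM in the SW13 groups BRG1 ERG, BRG1 Empty, BRG1-K785R ERG and BRG1-K785R Empty, and 34 and 28.5 CPM in GFP ERG and GFP Empty, with reads of the construct and the cells' own gene counted together. Of 8 prostate luminal markers all reached 1 CPM in VCaP and LNCaP. Of 6 adrenocortical markers none did in SW13, where they summed to 0.235 to 1.06 CPM and HSD3B2 and MC2R had no read. These RNAs thus do not show the labelled adrenocortical type, and SW13 is called by its line name.

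The lines differed in which members they used, as the plot of levels by library shows. In control VCaP cells (shCt) the members ran from 0.419 RPKM (SCG5) to 41.2 RPKM (VGF), and NTS, CHGA, CHGB, UCHL1, SYP and INSM1 lay between 26.6 and 10.2 RPKM. In control SW13 cells (GFP Empty) NTS stood at 1426 RPKM, rank 17 among the 26346 genes. UCHL1 was next at 226 RPKM (rank 253), then SYP at 37.7 RPKM, CHGB at 16.8 RPKM and SCG2 at 12.9 RPKM. In LNCaP Empty the highest member was VGF, at 1.51 RPKM and rank 12541. Lines were selected for different times and fitted apart, so these differences between lines were not tested.

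**Figure D1:**
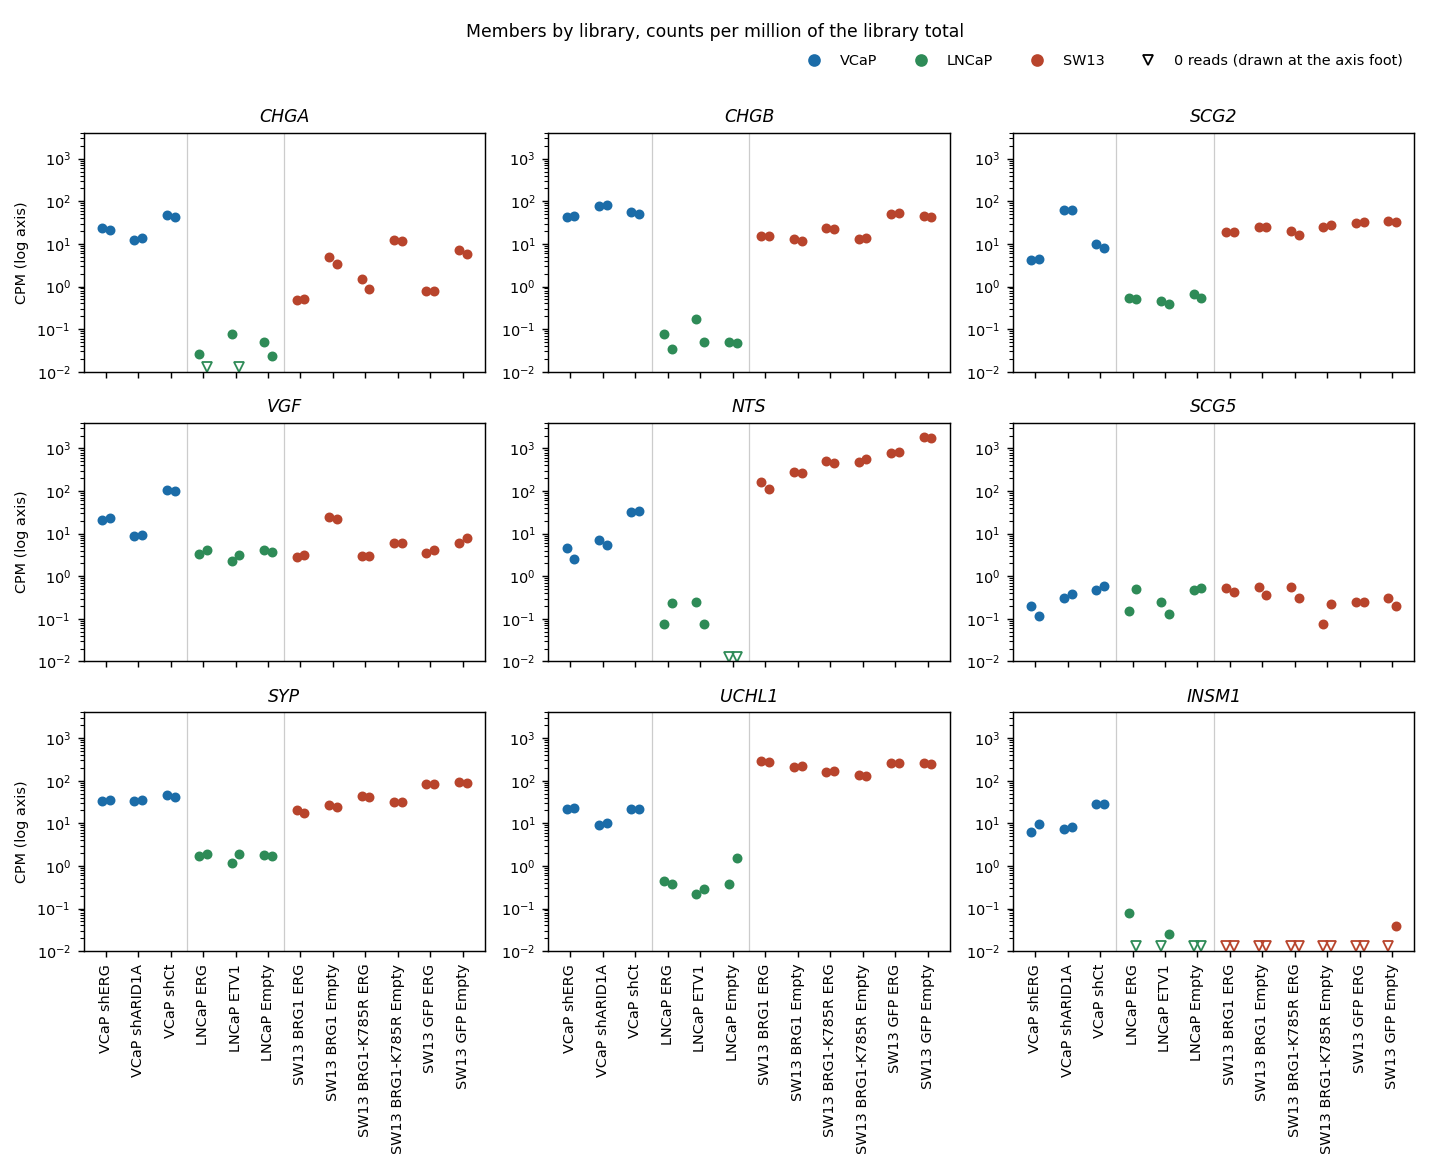
Level of each member in every library, in CPM (counts scaled to the library total) on a log axis, with 1 point per library and open triangles for libraries with 0 reads. NTS is highest in SW13, INSM1 exceeds 3 reads in VCaP libraries only, and LNCaP libraries stay under 5 CPM for every member.

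Each member had its own order of groups. CHGA fell off from VCaP shCt (45.1 CPM) through shERG (22.5) and shARID1A (12.9) to the SW13 groups, and the libraries of VCaP shARID1A and SW13 BRG1-K785R Empty overlapped, at 12.1 and 13.7 CPM in shARID1A and 12.6 and 11.5 CPM in BRG1-K785R Empty. CHGB was highest in VCaP shARID1A (78.9 CPM), and its libraries overlapped between VCaP shCt and SW13 GFP ERG and between VCaP shERG and SW13 GFP Empty. SCG2 was also highest in VCaP shARID1A (62.4 CPM), ahead of SW13 GFP Empty (33.3 CPM). VGF led in VCaP shCt (105 CPM), followed by SW13 BRG1 Empty (22.8 CPM) and VCaP shERG (21.7 CPM), whose libraries overlapped. NTS held its 6 highest groups in SW13, of which BRG1-K785R Empty and BRG1-K785R ERG overlapped. SYP was highest in the SW13 GFP groups, and UCHL1 in SW13 BRG1 ERG (283 CPM). SCG5 stayed under 0.6 CPM in all 24 libraries, at 2 to 22 reads, and neighbouring groups in its order all overlapped.

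Knocking down ERG in VCaP asked which of these genes change when the fusion-driven ERG is lowered. With shERG, 8 of 9 members fell and 1, UCHL1, was not called. All 9 members were tested, and 66.7% of all tested genes were called in this comparison, with 29.3% called higher and 37.4% called lower. NTS, VGF, INSM1, SCG2 and CHGA fell by more than 1 on the log2 scale, SCG5 did so on few reads, and SYP and CHGB fell less. Each log2 change is TMM-scaled and stands with an approximate standard error. Adjusted p values come from the quasi-likelihood test of edgeR (two-sided), with Benjamini-Hochberg adjustment over all tested genes and calls at 0.05.

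Among the granins, VGF stood at 20.6 and 22.7 CPM with shERG, against 108 and 102 CPM with shCt (log2 change -2.46 ± 0.07, adjusted p = 3.78e-18). CHGA stood at 23.2 and 21.7 CPM with shERG and 48 and 42.2 CPM with shCt (-1.19 ± 0.08, adjusted p = 1.87e-11). SCG2 stood at 4.28 and 4.45 CPM with shERG and 10.1 and 8.14 CPM with shCt (-1.25 ± 0.13, adjusted p = 1.34e-08). In each of the 3 genes both shERG libraries lay below both shCt libraries. With 2 libraries a group this only describes them. The share of all genes that separate in this way was not counted, here or in the comparisons below. CHGB stood at 43.9 and 45 CPM with shERG and 56.2 and 50.6 CPM with shCt, the smallest of the called changes (-0.45 ± 0.06, adjusted p = 1.95e-06).

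Neurotensin changed most. NTS stood at 4.57 and 2.59 CPM with shERG, against 32.5 and 33.5 CPM with shCt (-3.36 ± 0.14, adjusted p = 7.64e-15). The shERG libraries differed from each other, and both lay far below the shCt pair. INSM1 stood at 6.42 and 9.76 CPM with shERG and at 29 and 28.7 CPM with shCt (-2.03 ± 0.12, adjusted p = 2.76e-12), again with uneven shERG libraries and no overlap. The vesicle protein gene SYP fell to 34.2 and 34.8 CPM with shERG, against 45.5 and 41 CPM with shCt (-0.51 ± 0.07, adjusted p = 1.02e-06). UCHL1 overlapped, with 21.6 and 23 CPM with shERG and 22.2 and 21.8 CPM with shCt (-0.16 ± 0.08, adjusted p = 0.0899). The convertase chaperone gene SCG5 had 6 and 3 reads with shERG and 12 and 15 reads with shCt (-1.87 ± 0.57, adjusted p = 0.00624). Its call was lost with DESeq2 (adjusted p = 0.0756) and without the shERG 2 library (edgeR adjusted p = 0.0614).

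With library totals as the scale, the median log2 change of all genes for shERG moved by 0.183, and higher genes made up 60.5% of those called with library totals, against 43.9% with TMM scaling. The 8 called members kept their direction and call there. In a bulk sample, fewer cells that express a gene and less RNA per cell cannot be told apart. Of 6 fibroblast markers 2 reached 1 CPM in VCaP, and they summed to 79.6 and 81.1 CPM with shERG, 10.1 and 12.9 CPM with shARID1A and 29 and 29.7 CPM with shCt, mostly from LUM and COL1A1 while COL1A2 had no read. Of 4 basal markers 2 did, summing to 1.3 to 1.94 CPM with shERG, 3.65 to 5.13 CPM with shARID1A and 8.06 to 10.5 CPM with shCt. The 8 luminal markers summed to 5494 to 5691, 5849 to 5895 and 7048 to 7067 CPM in the same groups. Their part in the members' changes was not tested.

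Lowering ARID1A, a subunit of the BAF chromatin remodeler, split the granins. With shARID1A, SCG2 and CHGB rose, while VGF, NTS, INSM1, CHGA, UCHL1 and SYP fell. SCG5, at 9 and 9 reads with shARID1A and 12 and 15 reads with shCt, was not called (-0.65 ± 0.49, adjusted p = 0.253). The 8 called of 9 tested stand beside 66.1% of all tested genes called. SCG2 reached 62.1 and 62.6 CPM with shARID1A, against 10.1 and 8.14 CPM with shCt (2.70 ± 0.09, adjusted p = 6.45e-17). The shARID1A libraries were close to each other and far above both shCt libraries. CHGB rose to 77.1 and 80.8 CPM with shARID1A, against 56.2 and 50.6 CPM with shCt (0.50 ± 0.06, adjusted p = 2.4e-07).

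VGF stood at 8.69 and 9.23 CPM with shARID1A, against 108 and 102 CPM with shCt (-3.62 ± 0.08, adjusted p = 1.19e-19), the member with the greatest fall. CHGA stood at 12.1 and 13.7 CPM with shARID1A and 48 and 42.2 CPM with shCt (-1.88 ± 0.09, adjusted p = 2.16e-14). None of these libraries overlapped between groups. NTS fell to 6.98 and 5.37 CPM with shARID1A, against 32.5 and 33.5 CPM with shCt (-2.47 ± 0.13, adjusted p = 3.09e-13), and INSM1 to 7.47 and 8.03 CPM, against 29 and 28.7 CPM (-1.97 ± 0.13, adjusted p = 5.7e-12). UCHL1 fell to 9.15 and 10.3 CPM with shARID1A, against 22.2 and 21.8 CPM with shCt (-1.25 ± 0.09, adjusted p = 1.02e-10). SYP fell least, to 34.2 and 35.2 CPM against 45.5 and 41 CPM (-0.38 ± 0.07, adjusted p = 4.5e-05). Both VCaP comparisons share the shCt libraries, and ERG itself was lower with shARID1A than with shCt.

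**Figure D2:**
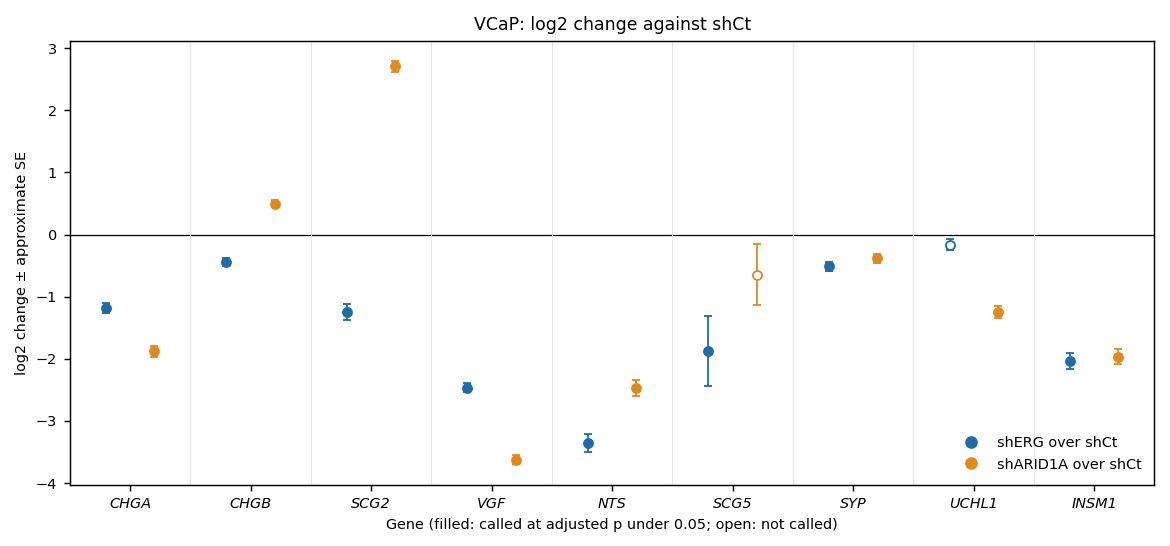
Log2 change of each member in VCaP with shERG or shARID1A over shCt, with approximate standard errors, filled where the adjusted p was under 0.05. SCG2 and CHGB lie on opposite sides of 0 for the 2 shRNAs, at -1.25 and 2.70 and at -0.45 and 0.50, while VGF, NTS, INSM1 and CHGA lie below -1 with both.

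In the direct test of shARID1A over shERG, 6 of 9 members differed, beside 73.0% of all tested genes called. SCG2 was higher with shARID1A by 3.95 ± 0.10 (adjusted p = 2.81e-19), CHGB by 0.94 ± 0.06 (adjusted p = 5.09e-12) and NTS by 0.89 ± 0.18 (adjusted p = 0.000161). VGF (-1.16 ± 0.09), UCHL1 (-1.09 ± 0.09) and CHGA (-0.69 ± 0.09) were lower with shARID1A, with adjusted p values of 1.07e-10, 6.53e-10 and 7.85e-07. SYP, SCG5 and INSM1 were not called (adjusted p = 0.111, 0.081 and 0.69). Without the shERG 2 library INSM1 was called (0.39, adjusted p = 0.0181).

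Other genes of the secretory pathway were counted in VCaP from 5 lists with 85 genes in all. The counts, through the receptors and regulators below, are to be read beside the shares of all tested genes called. These were 29.3% higher and 37.4% lower with shERG, and 32.9% higher and 33.2% lower with shARID1A. Here and in the other lines, members and lists were chosen with earlier results of these data known. The shares are thus no independent yardstick for them. Among 13 tested genes of granule cargo and processing, 2 rose and 9 fell with shERG (median log2 change -0.66, against -0.05 over all tested genes). They included PTPRN2, a granule membrane protein of the receptor phosphatase family, at 4.65 CPM with shERG and 92.5 CPM with shCt (-4.49 ± 0.08, adjusted p = 6.54e-21), and DDC, the enzyme that makes dopamine and serotonin, at 18.9 and 74.3 CPM (-2.17 ± 0.09). SCGN, a calcium sensor (-1.56 ± 0.07), and CADPS, which primes granules for release (-0.89 ± 0.05), also fell. With shARID1A the same list gave 3 higher, 4 lower and 6 uncalled (median 0.07, against 0.01 over all genes).

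Of 18 tested genes of vesicle docking and release, 6 rose and 11 fell with shERG (median -0.33), with CPLX2, a regulator of vesicle fusion, at -1.83 ± 0.07. With shARID1A 6 rose and 7 fell (median -0.15), and RAB27B, a GTPase of secretory granules, rose to 394 CPM, against 158 CPM with shCt (1.25 ± 0.05, adjusted p = 1.24e-15). Of 9 tested neuropeptide genes, 0 rose and 5 fell with shERG (median -0.47), and 2 rose and 5 fell with shARID1A (median -1.10). The appetite peptide gene NPY fell to 130 CPM with shARID1A, against 379 CPM with shCt (-1.62 ± 0.06), and the galanin gene GAL to 2.53 CPM, against 12.8 CPM (-2.40 ± 0.16). ADM, the gene of the vasodilator adrenomedullin, rose to 281 CPM, against 47.4 CPM (adjusted p = 1.54e-19).

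Neuropeptide receptors gave 2 higher and 4 lower of 9 with shERG (median -0.03) and 5 higher and 2 lower with shARID1A (median 0.13). GRPR, the receptor gene of gastrin-releasing peptide, fell with shERG (-1.37 ± 0.08) and with shARID1A (-2.19 ± 0.09). The somatostatin receptor gene SSTR5 fell with shERG (-1.92 ± 0.08) and rose with shARID1A (0.47 ± 0.07), while SSTR1 rose by a little with shERG (0.18 ± 0.07) and fell with shARID1A (-1.42 ± 0.08). The other receptor genes that rose with shARID1A, listed here after their values were seen, were SSTR2, VIPR2, VIPR1 and SORT1. Of 8 tested neuroendocrine regulators 2 rose and 3 fell with shERG (median -0.29), and 3 rose and 2 fell with shARID1A (median 0.10). REST, a repressor of neuronal genes that was singled out after its values had been seen, rose with shERG (0.62 ± 0.07, adjusted p = 4.51e-08) and with shARID1A (0.87 ± 0.07, adjusted p = 1.74e-10). The other called regulators, among them all that fell, are not named here. The part of REST in the members' changes was not tested.

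**Figure D3:**
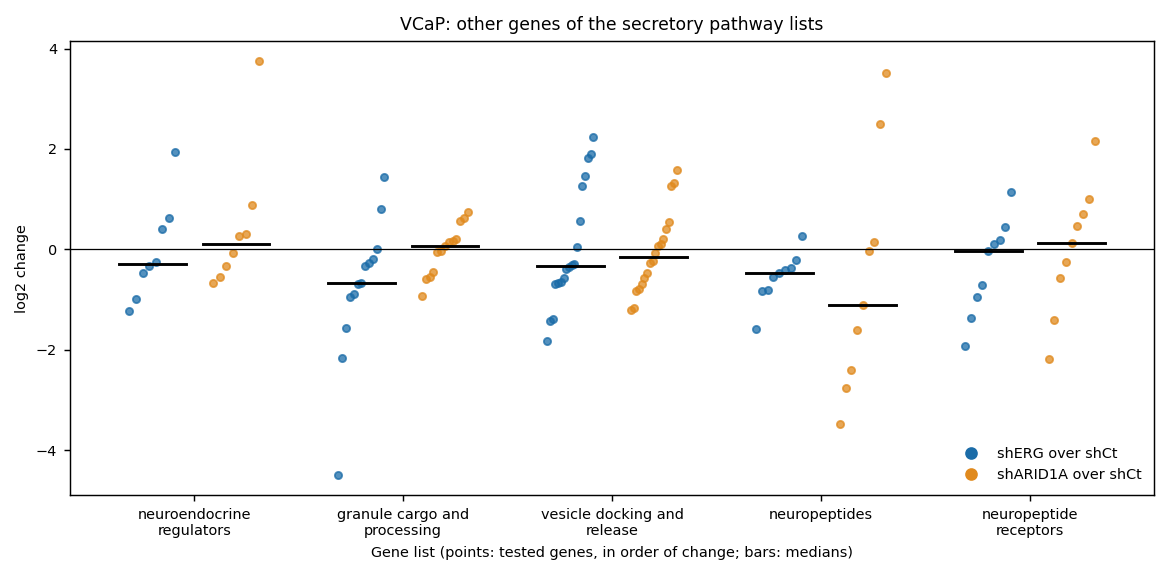
Log2 changes of the tested genes of 5 secretory pathway lists in VCaP with shERG or shARID1A over shCt, with 1 point per gene and bars at the medians. The granule list has its median at -0.66 with shERG and 0.07 with shARID1A, and the neuropeptide list at -0.47 and -1.10.

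In LNCaP 5 of 9 members could be tested, and none of them was called with ERG or ETV1. CHGA, CHGB, NTS and INSM1 had at most 10 reads in any LNCaP library and did not pass the filter on low counts. SYP, UCHL1, SCG2, SCG5 and VGF were tested. Of these, UCHL1 (9 to 65 reads a library), SCG2 (15 to 27) and SCG5 (5 to 22) were thinly counted. A missing call there does not show a lack of change. With ERG, 0 of 5 were called, beside 29.7% of all tested genes. With ETV1, 0 of 5 were called, beside 26.1%, and between ETV1 and ERG 0 of 5, beside 14.4%. At an unadjusted p under 0.05 these edgeR tests gave 0, 3 and 1 members in that order, and DESeq2 called 0 in each. The ERG and ETV1 comparisons share the Empty libraries.

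VGF stood at 3.41 and 4.22 CPM with ERG, 2.23 and 3.13 CPM with ETV1, and 4.03 and 3.67 CPM with Empty. The ETV1 libraries were the lower pair, at a log2 change of -0.48 ± 0.20 against Empty (adjusted p = 0.109), and the ERG libraries lay on both sides of Empty (-0.01 ± 0.20, adjusted p = 0.979). SYP stood between 1.2 and 1.91 CPM in all 6 libraries. UCHL1 was uneven in the controls, with 17 and 11 reads with ERG, 9 and 11 reads with ETV1, and 15 and 65 reads with Empty. Its change was -1.23 ± 0.60 with ERG (adjusted p = 0.162) and -1.89 ± 0.63 with ETV1 (adjusted p = 0.0568). Without the Empty 1 library UCHL1 was called in both, at -1.90 (adjusted p = 0.0223) and -2.57 (adjusted p = 0.00965), and without Empty 2 it stood at 0.12 (adjusted p = 0.906) and -0.53 (adjusted p = 0.592). The fibroblast markers were uneven in the same pair the other way round, at 96.9 CPM in Empty 1 and 23.2 CPM in Empty 2.

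NTS had 3 and 7 reads with ERG, 10 and 3 reads with ETV1, and no read in either Empty library. A count of 0 allows up to 3 reads in a library, and 1 ERG and 1 ETV1 library lay at that floor. With no filter on low counts NTS was called with ERG (adjusted p = 0.0472) and with ETV1 (adjusted p = 0.0419). INSM1 had at most 3 reads, CHGA at most 3 and CHGB at most 7, and no change in them was detectable at this depth.

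Some other secretory genes changed in LNCaP, where 29.7% of all tested genes were called with ERG and 26.1% with ETV1. The list counts at the end of this paragraph are to be read beside these shares. The receptor gene GRPR rose to 40.5 CPM with ERG and 20.7 CPM with ETV1, against 3.65 CPM with Empty (3.48 ± 0.09, adjusted p = 9.18e-08, and 2.54 ± 0.09, adjusted p = 6.67e-07). CADPS2, a relative of CADPS, rose to 110 and 212 CPM, against 49.9 CPM (1.15 ± 0.06 and 2.12 ± 0.06). VIPR2, a receptor of vasoactive intestinal peptide, rose to 4.86 and 11.1 CPM, against 1.42 CPM (1.78 ± 0.14 and 3.01 ± 0.14). With ERG, the hormone gene STC1 reached 115 CPM, against 8.43 CPM with Empty, and the synaptotagmin gene SYT4 fell to 26.1 CPM, against 76.5 CPM. The endocrine regulator gene NEUROG3 stood at 4.3 CPM with ERG and had no read with Empty. With ETV1, DDC fell to 47.6 CPM, against 126 CPM, SSTR5 rose to 34.5 CPM, against 15.4 CPM, and VIPR1 to 42.9 CPM, against 25.2 CPM. By list, with ERG and then ETV1, granule genes gave 3 higher and 1 lower, and 4 higher and 2 lower, of 10. Docking genes gave 5 and 2, then 2 and 3, of 17, neuropeptides 1 and 2, then 1 and 1, of 6, receptors 4 and 1, then 4 and 0, of 11, and regulators 1 and 0, then 2 and 2, of 8.

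In SW13 the question of BRG1 without ERG came first. SW13 cells have little BRG1 of their own, and the GFP groups read SMARCA4 at 25.5 to 35.4 CPM. INSM1 had 1 read in GFP Empty 2 and none in the other 11 SW13 libraries, so 8 members were tested. With BRG1, 6 members fell, NTS, CHGB, SYP, CHGA, SCG2 and UCHL1, and VGF rose. These 7 of 8 stand beside 62.4% of all tested genes called.

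NTS stood at 280 and 270 CPM with BRG1 Empty, against 1812 and 1723 CPM with GFP Empty (-2.82 ± 0.10, adjusted p = 2.52e-21). CHGB stood at 13 and 12 CPM with BRG1 Empty and 45.7 and 43.2 CPM with GFP Empty (-1.96 ± 0.09, adjusted p = 4.27e-18). SYP stood at 27.5 and 24.8 CPM with BRG1 Empty and 95.1 and 88.4 CPM with GFP Empty (-1.94 ± 0.08, adjusted p = 3.24e-19). All 3 fell without overlap of libraries. VGF went the other way, to 23.9 and 21.7 CPM with BRG1 Empty, against 5.97 and 7.72 CPM with GFP Empty (1.59 ± 0.14, adjusted p = 8.33e-12). CHGA (5 and 3.46 CPM with BRG1 Empty, 7.3 and 5.92 CPM with GFP Empty) changed by -0.77 ± 0.19 (adjusted p = 0.000608). SCG2 (-0.54 ± 0.10) and UCHL1 (-0.36 ± 0.07) fell less, and SCG5, at 15 and 9 reads with BRG1 and 7 and 5 with GFP, was not called (adjusted p = 0.263).

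With the ATPase mutant, set against the same GFP Empty libraries as BRG1, 6 of 8 members were called beside 58.7% of all tested genes. NTS stood at 483 and 558 CPM with BRG1-K785R Empty, against 1812 and 1723 CPM with GFP Empty (-1.68 ± 0.10, adjusted p = 1.84e-15). CHGB (-1.64 ± 0.09), SYP (-1.49 ± 0.08) and UCHL1 (-0.87 ± 0.07) fell too, and so did SCG2 by a little (-0.26 ± 0.10, adjusted p = 0.0237, lost without any of GFP Empty 1, GFP Empty 2 and BRG1-K785R Empty 1, up to 0.225). CHGA rose with the mutant, to 12.6 and 11.5 CPM, against 7.3 and 5.92 CPM with GFP Empty (0.96 ± 0.17, adjusted p = 9.58e-06). VGF stood at 5.87 and 5.97 CPM with the mutant, against 5.97 and 7.72 CPM with GFP Empty, and was not called (-0.14 ± 0.16, adjusted p = 0.462).

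**Figure D4:**
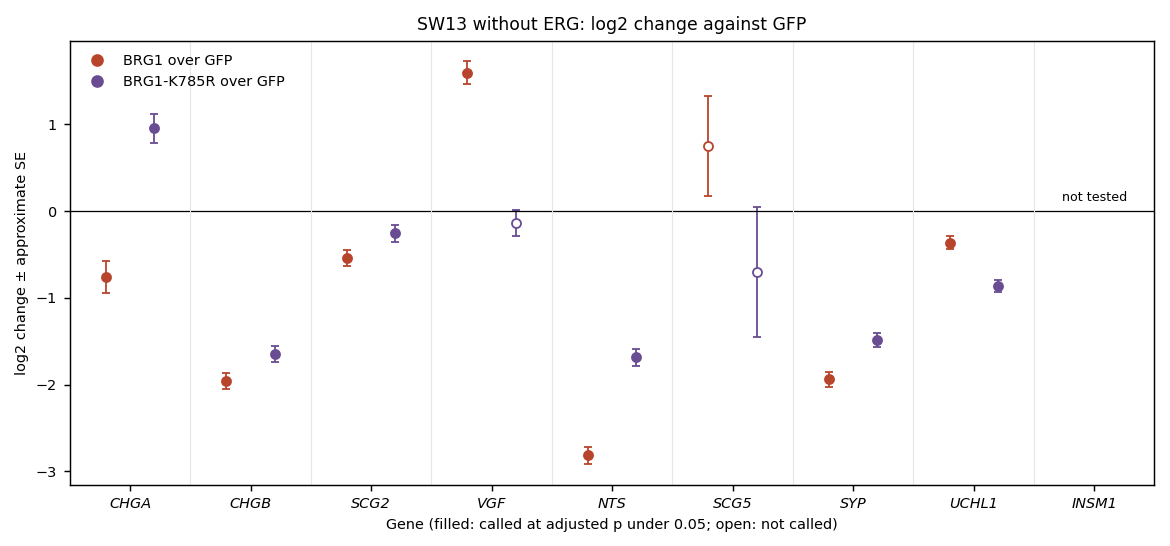
Log2 change of each member in SW13 without ERG, for BRG1 or BRG1-K785R over GFP, with approximate standard errors, filled where the adjusted p was under 0.05. NTS, CHGB and SYP lie below -1.4 with both constructs, while VGF is at 1.59 and -0.14 and CHGA at -0.77 and 0.96.

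BRG1 and its mutant were then compared directly, which asks what turns on the ATPase. Without ERG, 7 of 8 members differed, beside 66.7% of all tested genes called. VGF was higher with BRG1 than with BRG1-K785R by 1.73 ± 0.14 (adjusted p = 1.43e-12) and UCHL1 by 0.50 ± 0.07 (adjusted p = 1.7e-07). CHGA was lower with BRG1 (-1.72 ± 0.17, adjusted p = 2.94e-10), as were NTS (-1.13 ± 0.10, adjusted p = 9.15e-12) and SYP (-0.45 ± 0.09, adjusted p = 4.11e-05). CHGB (-0.32 ± 0.10, adjusted p = 0.00794) and SCG2 (-0.28 ± 0.10, adjusted p = 0.0119) were also lower, but with library totals as the scale, which moved the median of all genes by 0.213, they stood at -0.10 (adjusted p = 0.357) and -0.07 (adjusted p = 0.522). They also lost their calls without BRG1 Empty 2 (CHGB adjusted p = 0.0865, SCG2 adjusted p = 0.0629), and SCG2 also without BRG1-K785R Empty 2 (adjusted p = 0.119). SCG5, at 15 and 9 reads with BRG1 Empty and 2 and 5 reads with BRG1-K785R Empty, missed the threshold (adjusted p = 0.0505), and passed it under RLE scaling (0.0466), library totals (0.0251) and without BRG1 Empty 2 (0.0494) or BRG1-K785R Empty 2 (0.0365).

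With ERG present, BRG1 and GFP differed in 4 of 8 members, beside 58.9% of all tested genes. NTS (-2.59 ± 0.10), SYP (-2.19 ± 0.09), CHGB (-1.80 ± 0.09) and SCG2 (-0.77 ± 0.10) were lower with BRG1 ERG than with GFP ERG. VGF was not called there (-0.39 ± 0.19, adjusted p = 0.0745), at 2.88 and 3.19 CPM with BRG1 ERG and 3.54 and 4.22 CPM with GFP ERG. UCHL1 was not called either (0.11 ± 0.07, adjusted p = 0.159), but was with library totals (0.15, adjusted p = 0.0463). Between BRG1 ERG and BRG1-K785R ERG 5 of 8 differed, beside 47.0% of all tested genes. NTS (-1.78 ± 0.10), CHGA (-1.20 ± 0.39), SYP (-1.17 ± 0.09) and CHGB (-0.53 ± 0.10) were lower with BRG1 ERG, and UCHL1 was higher (0.79 ± 0.07). CHGA there rested on 12 and 13 reads with BRG1 ERG and 29 and 17 reads with BRG1-K785R ERG, and was at -0.74 (adjusted p = 0.235) without BRG1-K785R ERG 1.

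Adding ERG to SW13 lowered CHGA and VGF beside each of the 3 partner constructs, and NTS beside BRG1 and GFP. Beside BRG1-K785R the NTS libraries overlapped, and its call was lost under 4 of 10 alternatives. Beside GFP CHGA, VGF and NTS were the 3 members called of 8, with 26.0% of all tested genes called. Beside BRG1-K785R 6 of 8 were called (56.2% of all tested genes), and beside BRG1 7 of 8 (45.4%). CHGA had the greatest change in each. It stood at 0.773 and 0.793 CPM with GFP ERG, against 7.3 and 5.92 CPM with GFP Empty (-3.12 ± 0.25, adjusted p = 9.42e-11). Beside BRG1-K785R it stood at 1.47 and 0.859 CPM with ERG and 12.6 and 11.5 CPM with Empty (-3.56 ± 0.23, adjusted p = 2.4e-14), and beside BRG1 at 0.48 and 0.512 CPM with ERG and 5 and 3.46 CPM with Empty (-3.04 ± 0.29, adjusted p = 2.73e-10). The ERG libraries held 12 to 29 CHGA reads each and lay below all Empty libraries.

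VGF fell most where BRG1 had raised it, and the rise and this fall rest on the same BRG1 Empty libraries. Beside BRG1, VGF stood at 2.88 and 3.19 CPM with ERG, against 23.9 and 21.7 CPM with Empty (-2.86 ± 0.15, adjusted p = 2.13e-16). Beside BRG1-K785R it stood at 2.99 and 2.93 CPM with ERG and 5.87 and 5.97 CPM with Empty (-1.19 ± 0.18), and beside GFP at 3.54 and 4.22 CPM with ERG and 5.97 and 7.72 CPM with Empty (-0.88 ± 0.17, adjusted p = 0.000213). The ERG libraries of all 3 partners thus lay between 2.88 and 4.22 CPM. The change beside BRG1 less that beside GFP was -1.98 ± 0.23 on the log2 scale (adjusted p = 6.94e-08), and less that beside BRG1-K785R it was -1.67 ± 0.25 (adjusted p = 1.94e-06).

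NTS stood at 799 and 821 CPM with GFP ERG, against 1812 and 1723 CPM with GFP Empty (-1.18 ± 0.10, adjusted p = 1.67e-10). Beside BRG1 it stood at 162 and 113 CPM with ERG and 280 and 270 CPM with Empty (-0.95 ± 0.10, adjusted p = 2e-09). Neither pair overlapped. Beside BRG1-K785R it stood at 502 and 457 CPM with ERG and 483 and 558 CPM with Empty. The call there (-0.30 ± 0.10, adjusted p = 0.0082) was lost under library totals (-0.12, adjusted p = 0.336), which moved the median of all genes by 0.188, with DESeq2 (adjusted p = 0.155), without BRG1-K785R Empty 2 (adjusted p = 0.147) and without BRG1-K785R ERG 2 (adjusted p = 0.0971).

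The other called members moved by less than 1 on the log2 scale with ERG. SYP rose beside BRG1-K785R, to 43.8 and 41.9 CPM with ERG against 30.9 and 31 CPM with Empty (0.28 ± 0.09, adjusted p = 0.00657, and 0.0782 without BRG1-K785R ERG 1), and fell beside BRG1, to 20.5 and 17.1 CPM against 27.5 and 24.8 CPM (-0.43 ± 0.09, adjusted p = 0.000261). CHGB rose beside BRG1-K785R (0.56 ± 0.10, adjusted p = 1.62e-05) and beside BRG1 (0.35 ± 0.10, adjusted p = 0.00565, and 0.0857 without BRG1 Empty 2), and stood at 0.19 ± 0.08 beside GFP (adjusted p = 0.102). SCG2 fell beside BRG1-K785R (-0.72 ± 0.10) and BRG1 (-0.35 ± 0.10) and was not called beside GFP (-0.12 ± 0.10, adjusted p = 0.392). UCHL1 rose beside BRG1, to 284 and 282 CPM with ERG, against 206 and 227 CPM with Empty (0.43 ± 0.07, adjusted p = 5.32e-06). Its libraries beside GFP lay between 253 and 256 CPM with and without ERG. Beside BRG1-K785R it was not called (0.15 ± 0.07, adjusted p = 0.0788), but was under RLE scaling (0.0406), library totals (0.000114), DESeq2 (0.0241) and a fit of the compared groups alone (0.0427). SCG5 was called beside none of them, at 2 to 15 reads per library.

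**Figure D5:**
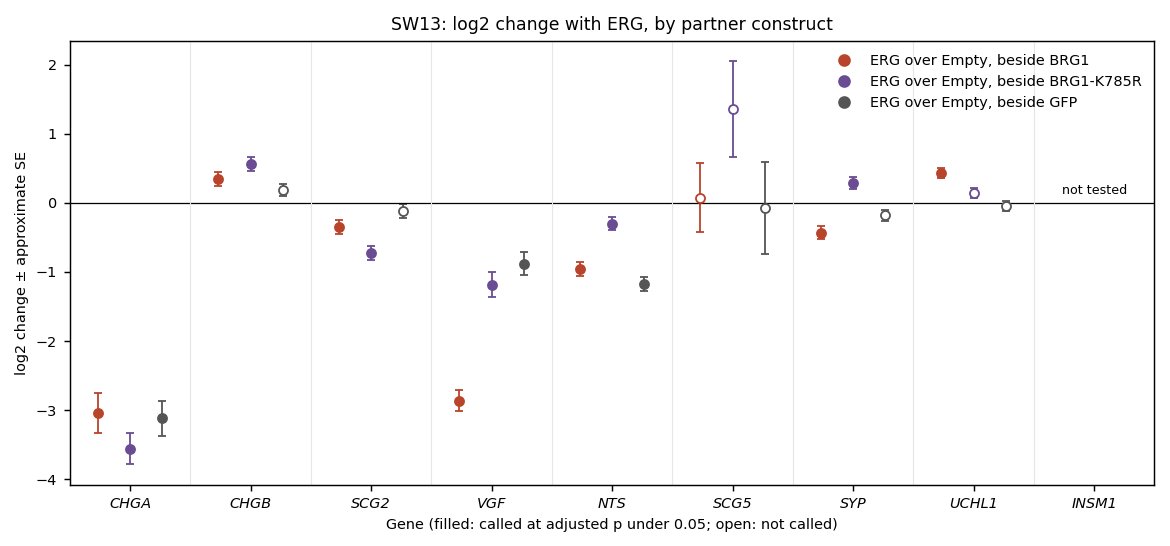
Log2 change of each member in SW13 with ERG over Empty, beside BRG1, BRG1-K785R or GFP, with approximate standard errors, filled where the adjusted p was under 0.05. CHGA lies between -3.56 and -3.04 beside all 3, while VGF is at -2.86 beside BRG1 and at -1.19 and -0.88 beside the others, and INSM1 was not tested.

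The effect of ERG was tested for a difference between partners. Between BRG1 and GFP it differed in 2 of 8 members, beside 37.8% of all tested genes called, VGF as above and UCHL1 (0.48 ± 0.10, adjusted p = 0.000263). NTS differed by 0.22 ± 0.14 (adjusted p = 0.207), and by 0.47 (adjusted p = 0.00158) without BRG1 ERG 2. SYP differed by -0.25 ± 0.12 (adjusted p = 0.102), and was called under library totals (adjusted p = 0.0231) and without BRG1 ERG 1 (adjusted p = 0.0288). Between BRG1 and BRG1-K785R it differed in 5 of 8, beside 46.2%. Besides VGF these were SYP (-0.72 ± 0.13, adjusted p = 2.67e-05) and NTS (-0.65 ± 0.14, adjusted p = 0.000261), and UCHL1 (0.29 ± 0.10, adjusted p = 0.0182) and SCG2 (0.38 ± 0.15, adjusted p = 0.0332). With library totals as the scale, which moved the median of all genes by -0.234 here, UCHL1 stood at 0.05 (adjusted p = 0.677) and SCG2 at 0.15 (adjusted p = 0.431), and CHGB was called (-0.44, adjusted p = 0.0103). UCHL1 also lost its call without BRG1 Empty 1 (adjusted p = 0.114) or BRG1-K785R Empty 1 (adjusted p = 0.0556). SCG2 lost it with DESeq2 (adjusted p = 0.0852) and without BRG1 Empty 1, BRG1 Empty 2, BRG1 ERG 2, BRG1-K785R Empty 2 or BRG1-K785R ERG 2 (adjusted p = 0.0547 to 0.283). For CHGA the difference was 0.08 ± 0.48 against GFP (adjusted p = 0.919) and 0.52 ± 0.45 against BRG1-K785R (adjusted p = 0.356). Beside BRG1-K785R, SMARCA4 itself was lower with ERG (1423 CPM) than with Empty (2110 CPM), and the part of this in the members' changes was not tested. The level of added ERG differed as well. It averaged 2003 ± 204 CPM in BRG1 ERG, 1597 ± 16.9 CPM in BRG1-K785R ERG and 1530 ± 79.9 CPM in GFP ERG. The part of these ERG levels in the differences between partners was not tested either.

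Other secretory genes of SW13 were counted in the same lists, to be read beside the share of all tested genes called with ERG, 26.0% beside GFP, 56.2% beside BRG1-K785R and 45.4% beside BRG1. With ERG beside GFP, 6 of 15 docking genes rose and 0 fell, led by UNC13A, a vesicle priming factor, at 65.9 CPM with ERG and 22.4 CPM with Empty (adjusted p = 8.67e-12), and it rose beside BRG1-K785R too (1.34 ± 0.12). Beside BRG1, 0 of 15 docking genes rose and 3 fell. Of 11 granule genes 0 were called beside GFP, 3 rose and 3 fell beside BRG1-K785R, and 4 rose and 2 fell beside BRG1. In each of the 3 partners 2 of 6 neuropeptide genes fell and 0 rose. ADM fell beside GFP (-0.86 ± 0.11) and BRG1-K785R (-1.01 ± 0.11), and beside BRG1 the parathyroid hormone-like gene PTHLH fell to 0.934 CPM, against 8.79 CPM (-3.18 ± 0.26), and STC1 to 0.0799 CPM, against 1.9 CPM. The enolase gene ENO2, a neuronal marker, fell beside BRG1 to 49.7 CPM, against 95.3 CPM (-0.89 ± 0.08), and CADPS2 rose to 6.22 CPM, against 1.02 CPM (2.64 ± 0.28).

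Without ERG, where 62.4% of all tested genes were called, BRG1 against GFP raised 4 and lowered 3 of 11 granule genes, raised 5 and lowered 3 of 15 docking genes, and raised 6 and lowered 2 of 9 receptors. RAB3B, a GTPase of vesicle docking, reached 47.3 CPM with BRG1 Empty and 31.2 CPM with BRG1-K785R Empty, against 11.6 CPM with GFP Empty (adjusted p = 5.52e-17 and 6.72e-14). STX1A, a syntaxin of the fusion machinery, rose with both too (1.30 ± 0.13 and 1.17 ± 0.13). SOX2, a progenitor cell factor, fell to 390 CPM with BRG1 Empty, against 674 CPM with GFP Empty (-0.92 ± 0.07). ENO2 fell to 33.9 CPM with BRG1-K785R Empty, against 107 CPM (-1.58 ± 0.08). Prostate luminal markers also moved in SW13, summing to 154 to 202 CPM with BRG1 ERG, 72 to 72.2 CPM with BRG1 Empty, 39 to 39.6 and 21.7 to 23.2 CPM with BRG1-K785R ERG and Empty, and 17.3 to 18.9 and 17.7 to 18 CPM with GFP ERG and Empty. Of these 8 markers 5 reached 1 CPM in SW13. Of 4 endothelial markers 2 did, summing to 50.2 to 59.6 CPM with BRG1 ERG and 19.7 to 20.1 CPM with BRG1 Empty, to 29.8 to 32.6 CPM with BRG1-K785R ERG and 12.8 to 13.4 CPM with BRG1-K785R Empty, and to 28 to 28.1 CPM with GFP ERG and 22 to 23.5 CPM with GFP Empty. Of 6 fibroblast markers 4 did, at 190 to 211 and 214 to 221 CPM with BRG1 ERG and Empty, 245 to 248 and 202 to 204 CPM with BRG1-K785R ERG and Empty, and 468 and 317 to 375 CPM with GFP ERG and Empty. The part of these markers in the members' changes was not tested.

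Members varied along different lines within the cell lines. After the mean of each line had been taken off log2(CPM + 0.5), CHGB and SYP had a Pearson r of 0.852 over the 24 libraries, SYP and NTS of 0.773, and VGF and INSM1 of 0.677, while UCHL1 and SCG2 were at -0.503. By the same measure over 12747 genes, the gene most like CHGA was WSB2 (0.945), that most like SYP was NR2F6 (0.952), which was also among the top 3 for CHGB (0.938), and that most like NTS was PREP (0.948). CYP4Z1 was nearest to SCG2 (0.950), AADAT to VGF (0.922), CEACAM20 to INSM1 (0.948) and CNTLN to UCHL1 (0.826). GALNT4 and the readthrough gene POC1B-GALNT4 led for CHGB (0.949 each) and can share reads. INSM1 reached at most 0.0775 CPM in LNCaP and 0.0392 CPM in SW13. Its variation here thus comes almost wholly from the 6 VCaP libraries. CHGA, CHGB and NTS reached at most 0.0751, 0.175 and 0.25 CPM in LNCaP, under the 0.5 added before the log. Their values of r thus rest mainly on the VCaP and SW13 libraries. The libraries behind all these values share line, group and depth, and no test was made.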

How the data were processed

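Each library's file, as deposited by the authors, lists gene symbols with read counts, another column with gene length, and RPKM values. The deposited RPKM equal the counts over library total and length, within a relative error of 5e-06. The aligner STAR 2.3.1 and the build hg19 come from the submitters' processing notes. How reads were counted, with which annotation and strand, is not given in the sources used here. Reads were 75 bases, single end, per the labels' protocols.

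Each line was fitted alone with edgeR 4.0.16 (R 4.3.3), all its groups in 1 quasi-likelihood fit, with TMM scaling and filterByExpr by group. That left 16791 (VCaP), 16993 (LNCaP) and 17018 (SW13) genes, over which p was adjusted (Benjamini-Hochberg, 0.05). Standard errors are the log2 change over the root of F. Each line's fit was first tested on simulated data. CPM are counts over the library total, and 3 counts per library are the floor. Such floors cover counting error only. Likeness, motifs and plots used Python 3.11.15 with matplotlib 3.10.9, numpy 2.4.6 and pandas 2.3.3.

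The members and gene lists were chosen with earlier results of these data known. All members are named, with up to 6 called genes of the lists per comparison, by smallest adjusted p at a mean of at least 1 CPM. Alternatives were RLE scaling, library totals, no filter, DESeq2 1.42.0, only the compared groups, a replicate block and leaving out each library.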

Additional observations from a re-analysis of the deposited data

Results flagged for a closer look

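In SW13 the change of some members with ERG differed between partner constructs by the test of the difference itself (edgeR quasi-likelihood test, Benjamini-Hochberg adjustment). Between BRG1 and GFP it differed for VGF, at -1.98 on the log2 scale (adjusted p = 6.94e-08), and for UCHL1, at 0.48 (adjusted p = 0.000263). Between BRG1 and BRG1-K785R it differed for VGF at -1.67 (adjusted p = 1.94e-06), SYP at -0.72 (adjusted p = 2.67e-05), NTS at -0.65 (adjusted p = 0.000261), UCHL1 at 0.29 (adjusted p = 0.0182) and SCG2 at 0.38 (adjusted p = 0.0332). The VGF differences kept their call under all 14 alternatives of each. So did those of UCHL1 against GFP and of SYP and NTS against BRG1-K785R. The differences of SCG2 and UCHL1 against BRG1-K785R did not. Added ERG was also highest beside BRG1, and its part in these differences was not tested.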

How the results depend on the processing

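Of 1276 recomputed member results, 1229 stayed on their side of the threshold, 27 lost a call, 20 gained one and 0 called results reversed. Among the 1229, 28 that were uncalled in both fits had the other sign. All alternatives left 101 of 122 member results on their side. With no filter on low counts, called members numbered 1 for LNCaP ERG (NTS) and 2 for LNCaP ETV1 (NTS and UCHL1), and with only the compared groups in the fit 5 for SW13 ERG beside GFP (CHGB and SYP added). Leaving out each library in turn gave 0 to 1 members for LNCaP ERG, 0 to 1 for LNCaP ETV1, and 3 to 5 for the ERG effect beside BRG1 against BRG1-K785R (3 without BRG1 Empty 1). The causes were not tested. Over all genes it gave 2632 to 3873 calls for LNCaP ERG (5045 with all libraries, most lost without Empty 1 or 2), 1987 to 3261 for LNCaP ETV1 (4439; Empty 1, Empty 2 and ETV1 2), 1003 to 1638 for ETV1 against ERG (2441; ERG 1, ETV1 1 and ETV1 2) and 1743 to 3642 for SW13 ERG beside GFP (4433; GFP Empty 2, GFP ERG 1 and GFP ERG 2). Same-numbered libraries were not pairs by design, and their deviations correlated at -0.271 to 0.387 over 21 pairs of groups. The replicate block changed no count of called members (8 for shERG and 8 for shARID1A in VCaP). Low reads limit SCG5 in every line and CHGA, CHGB, NTS, INSM1, UCHL1 and SCG2 in LNCaP.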
